A study of Mus musculus with 12 samples.

Results

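The genes described here are the 5 subunits of the transcription factor NF-kB (Nfkb1, Nfkb2, Rel, Rela and Relb) and 5 genes whose products hold it back or tune it in feedback (Nfkbia, Nfkbie, Nfkbiz, Tnfaip3 and Bcl3). They were chosen by name: every probe of the deposited non-normalized table whose gene symbol equalled 1 of the 10 was taken, which gave 13 probes for 10 genes, of 45281 probes and 30789 symbols in all. All 13 probes passed the filter on dim probes, and the 10 genes were among 13190 tested. The rule uses symbols only, but the 10 genes were picked with earlier results of these data known.

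Expression was measured on 12 Illumina mouse bead arrays in cells of mice on a mixed C3H/C57BL/6 background, to look for signs of a response to autoantigen in leukaemia cells of the spleen and of the peritoneum. TCL1-192 cells make up 4 groups of 2 arrays: spleen PtC+, spleen PtC-, peritoneum PtC+ and peritoneum PtC-, where the sign marks binding or not binding phosphatidylcholine, a self antigen of many B-1 cells. Peritoneal cells of young TCL1 mice and of wild type mice have 1 array in each PtC class. The labels call the cells of every array chronic lymphocytic leukaemia cells, those of the wild type included. Transgenic TCL1, an oncogene first known from T cell leukaemia, makes mouse B cells grow out as a model of that disease. The sources used here do not state the promoter of the transgene, the meaning of 192, ages, the number of donors or the sorting gates. The B cell markers Cd79b, Ms4a1, Cd22, Blnk and Igh-6 were detected on every array, whereas Pax5 was detected on none.

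NF-kB is a family of dimers that wait in the cytoplasm, bound by inhibitors of the IkB type, until a signal has the inhibitor destroyed. In B cells the antigen receptor and Toll-like receptors use the canonical route to Rela and Rel dimers with the p50 product of Nfkb1, while BAFF and CD40 also use the alternative route, in which the p100 product of Nfkb2 is cut to p52 and pairs with Relb. Several of the genes that NF-kB switches on are its own brakes, so that the level of Nfkbia or Tnfaip3 mRNA is often read as a trace of recent NF-kB activity. These arrays measured mRNA, not nuclear protein.

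Promoter sequences are shown because NF-kB is known to act on the genes of its own loop. They are RefSeq windows of build GRCm38.p6, from 250 bases before to 50 bases after an annotated start, and 7 of the 10 genes matched the table used here, with 10 windows among them. The kappaB consensus of textbooks, a motif 10 bases long, was searched on both strands, and capitals mark each match (overlapping matches run together). It was found in 8 of these 10 windows, against 4.51% of 32851 windows in the whole table. By gene it was found in 6 of the 7, Rela being the exception, against 5.14% of 27025 genes. The Nfkb2 windows chr19:46305445-46305744 and chr19:46305680-46305979 overlap and share 1 match. The windows of 4 genes are printed, chosen as genes whose values differed between groups below. Tnfaip3 has 2 windows and Nfkb2 has 3, and of each the window with the most matches is printed: the other Tnfaip3 window (chr10:19011914-19012213) had 0 matches, and the other Nfkb2 windows had 2 and 1. In Tnfaip3 (chr10:19015361-19015660, minus strand) matches lay at -125 to -116 and at -12 to -3 relative to the start. In Rel (chr11:23770920-23771219, minus strand) overlapping matches spanned -92 to -82. Nfkbia (chr12:55492598-55492897, minus strand) had 1 match at -29 to -20. Nfkb2 (chr19:46304487-46304786, plus strand) had overlapping matches at -39 to -29 and another at -11 to -2. A match describes letters only and is not evidence of binding in these cells.
Tnfaip3: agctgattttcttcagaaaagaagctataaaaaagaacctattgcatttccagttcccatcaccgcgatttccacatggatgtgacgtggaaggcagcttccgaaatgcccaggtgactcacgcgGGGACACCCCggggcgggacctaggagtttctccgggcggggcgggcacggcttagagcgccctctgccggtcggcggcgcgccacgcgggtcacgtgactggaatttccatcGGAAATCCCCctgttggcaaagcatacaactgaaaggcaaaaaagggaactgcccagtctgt
Rel: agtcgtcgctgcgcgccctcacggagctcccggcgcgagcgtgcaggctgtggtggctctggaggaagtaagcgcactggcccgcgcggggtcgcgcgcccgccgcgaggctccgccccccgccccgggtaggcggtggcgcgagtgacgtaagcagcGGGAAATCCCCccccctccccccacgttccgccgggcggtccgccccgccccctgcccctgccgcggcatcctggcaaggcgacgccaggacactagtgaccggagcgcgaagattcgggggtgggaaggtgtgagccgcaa
Nfkbia: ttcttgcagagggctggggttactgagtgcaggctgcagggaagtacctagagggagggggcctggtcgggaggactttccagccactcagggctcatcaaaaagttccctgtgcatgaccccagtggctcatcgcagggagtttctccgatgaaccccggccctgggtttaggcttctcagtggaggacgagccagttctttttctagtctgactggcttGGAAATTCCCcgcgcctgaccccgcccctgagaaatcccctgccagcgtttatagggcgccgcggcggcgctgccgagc
Nfkb2: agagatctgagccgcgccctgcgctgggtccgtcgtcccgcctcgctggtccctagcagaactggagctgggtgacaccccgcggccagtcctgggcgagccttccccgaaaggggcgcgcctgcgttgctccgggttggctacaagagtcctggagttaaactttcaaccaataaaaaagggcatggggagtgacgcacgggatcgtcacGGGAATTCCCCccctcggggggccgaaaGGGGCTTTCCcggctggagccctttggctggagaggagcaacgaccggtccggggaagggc

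All values below are normalized signals on a log2 scale. A gene was called where limma's p, adjusted by the Benjamini-Hochberg method over all 13190 genes, was under 0.05, and ± gives the standard error (SE) of a difference from that model. The lone arrays of the young TCL1 and wild type groups were assumed to vary like the replicated TCL1-192 groups, nothing in the labels says whether replicates came from separate animals, and so p-values measure only the spread between these arrays. The PtC- peritoneal TCL1-192 array of replicate 2 stood apart, with a median signal of 219.2 (other arrays 99.4 to 121.4), 10711 detected probes (others 13825 to 15192) and 4 of the 10 genes detected (others 8 to 10). Counts are therefore given with and without it. Each probe has its own brightness, so levels are compared between arrays and never between genes.

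**Figure D1:**
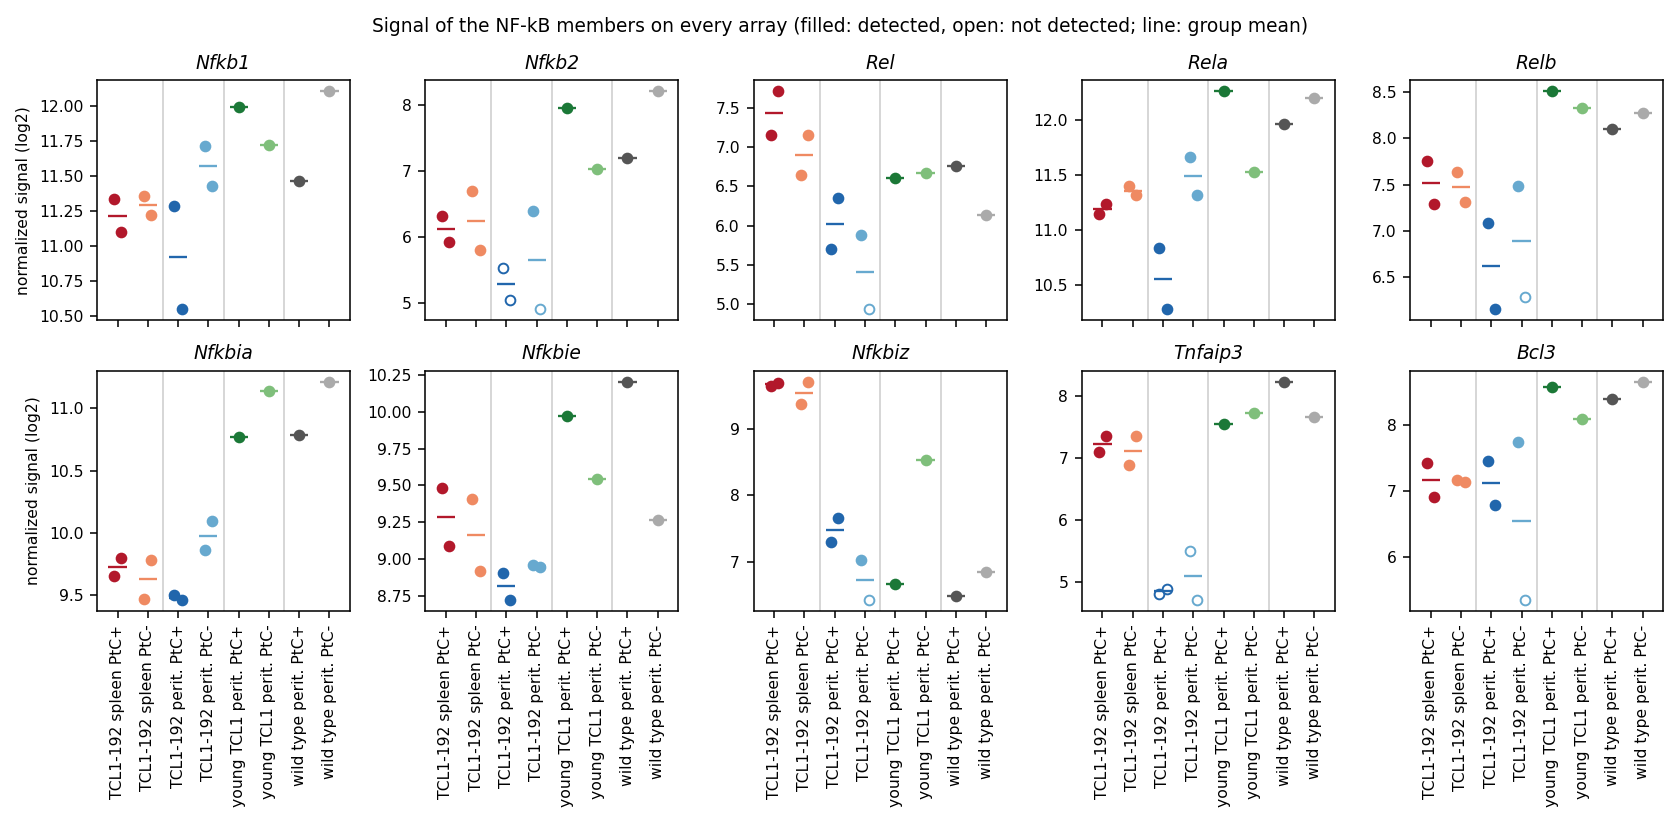
Normalized signal (log2, vertical axis) of each of the 10 genes on each of the 12 arrays, grouped by cell source and PtC class (horizontal axis); filled points were detected, open points were not, and short lines are group means. Nfkbiz is highest on the 4 TCL1-192 spleen arrays (9.38 to 9.71), and Tnfaip3 is open on all 4 TCL1-192 peritoneal arrays (4.71 to 5.49).

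Spleen against peritoneum within TCL1-192 cells (4 arrays against 4) asks how these cells differ between the 2 sites. Of the 10 genes 3 were called, all higher in the spleen, namely the feedback genes Nfkbiz and Tnfaip3 and the subunit Rel. Over all genes 26.7% were called, and 15.5% were called higher. The median difference of the 10 genes was 0.53, against -0.021 over all genes. Without the array that stood apart the count was again 3 (29.4% of all genes), and it was 3 within PtC+ cells (21.9% of all genes) and 2 within PtC- cells (6.54%).

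Rel encodes c-Rel, the subunit most tied to lymphocytes. On TCL1-192 spleen arrays it had 7.15 and 7.72 in PtC+ cells and 6.64 and 7.16 in PtC- cells, and on TCL1-192 peritoneal arrays it had 5.70 and 6.35 in PtC+ cells and 5.87 and 4.93 in PtC- cells, the last undetected. The lowest spleen value lay above the highest peritoneal one. The difference was 1.46 ± 0.28 (SE, adjusted p = 0.0103), which is 2.74-fold higher in the spleen. It was called within PtC+ cells (1.42 ± 0.40, adjusted p = 0.0446) and missed the threshold within PtC- cells at a similar size (1.50 ± 0.40, adjusted p = 0.0752), and without the array that stood apart it was 1.30 (adjusted p = 0.0051).

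Rela encodes p65, the main activating subunit of the canonical route. It had 11.14 and 11.23 in PtC+ and 11.40 and 11.31 in PtC- spleen cells, against 10.83 and 10.28 in PtC+ and 11.66 and 11.31 in PtC- peritoneal cells. The spleen values lay inside the peritoneal range, and the difference of 0.25 ± 0.17 was not called (adjusted p = 0.318; 95% interval -0.15 to 0.65). Relb and Nfkb2, the pair of the alternative route, differed by 0.74 ± 0.32 (adjusted p = 0.137) and 0.71 ± 0.36 (adjusted p = 0.193). Relb ran from 7.29 to 7.75 in the spleen and from 6.16 to 7.49 in the peritoneum, so the groups overlapped. Nfkb2 ran from 5.80 to 6.69 in the spleen, detected on all 4 arrays, and from 4.91 to 6.40 in the peritoneum, where only the PtC- array of replicate 1 detected it. Without that array, which leaves the array that stood apart as the only PtC- peritoneal one, the difference was 1.03 for Relb and 0.92 for Bcl3. For Nfkb2 the fitted difference was then 1.09, but none of the 3 peritoneal arrays left had detected it. With these at their lowest detected signal Nfkb2 was at least 1.08-fold higher in the spleen.

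Nfkb1, the source of p105 and p50, depended on the probe. Its brighter probe, the one used, had 11.10 to 11.36 in the spleen and 10.55 to 11.71 in the peritoneum, a difference of 0.0091 ± 0.19 (adjusted p = 0.976). Its dimmer probe had 8.59 and 8.24 in PtC+ and 7.99 and 7.85 in PtC- spleen cells, against 6.15 and 5.31 (undetected) in PtC+ and 6.77 and 7.08 in PtC- peritoneal cells. On that probe every spleen array lay above every peritoneal one, by 1.84 ± 0.22 (adjusted p = 0.00172 over 18100 probes). The file gives a chromosome for the brighter probe and none for the dimmer, and the transcripts that the 2 probes report are not given, so no direction is stated for Nfkb1.

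**Figure D2:**
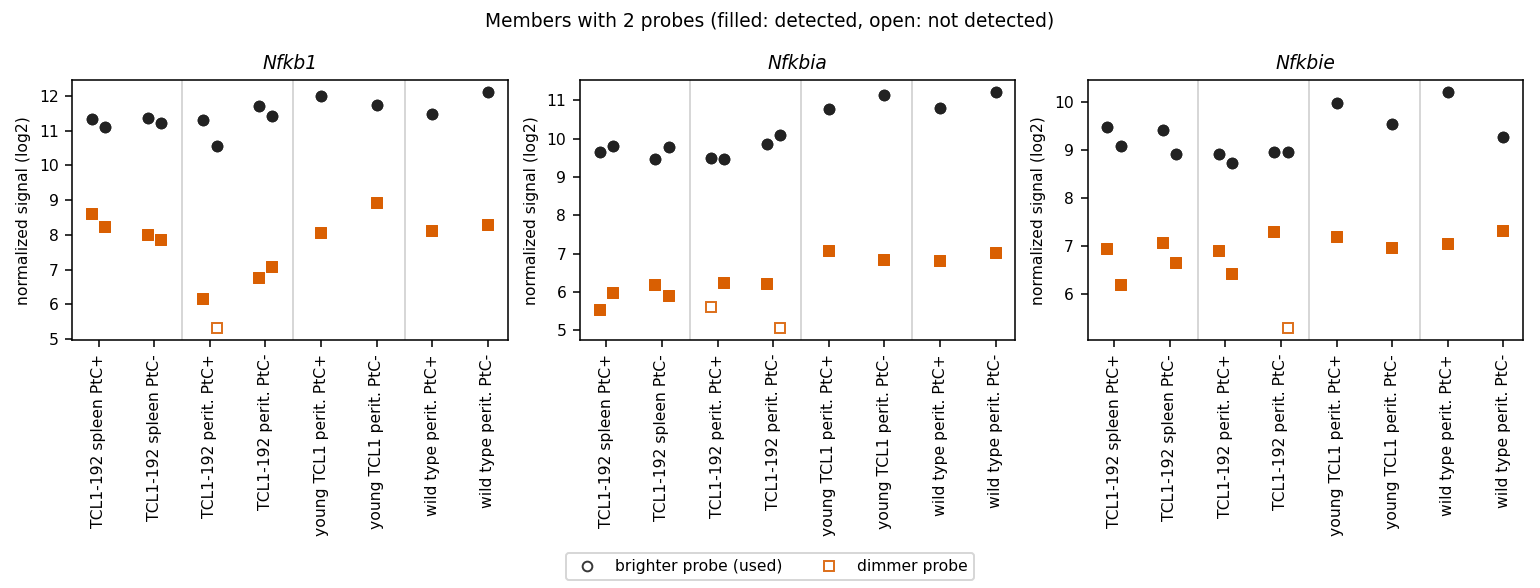
Normalized signal (log2, vertical axis) of both probes of Nfkb1, Nfkbia and Nfkbie on each array (horizontal axis: cell source and PtC class), with the used brighter probe as circles and the dimmer probe as squares; open symbols were not detected. The dimmer Nfkb1 probe drops to between 5.31 and 7.08 in TCL1-192 peritoneal cells while the brighter one stays between 10.55 and 11.71.

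Among the inhibitors, Nfkbiz had the largest difference of the 10. It encodes IkB-zeta, a nuclear member of the IkB family that is induced within a short time of stimulation and alters which targets NF-kB activates. It had 9.66 and 9.70 in PtC+ and 9.38 and 9.71 in PtC- spleen cells, against 7.29 and 7.65 in PtC+ and 7.03 and 6.42 in PtC- peritoneal cells, the last undetected. The groups were well apart, at 2.51 ± 0.19 (adjusted p = 0.000303), which is 5.71-fold higher in the spleen. Within PtC+ cells the difference was 2.20 ± 0.26 (adjusted p = 0.00358) and within PtC- cells 2.82 ± 0.26 (adjusted p = 0.00228).

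Tnfaip3 encodes A20, an enzyme that edits ubiquitin and shuts off signalling to NF-kB, and which is often lost in human B cell lymphomas. It had 7.09 and 7.35 in PtC+ and 6.89 and 7.35 in PtC- spleen cells. All 4 TCL1-192 peritoneal arrays failed to detect it (4.81 and 4.89 in PtC+, 5.49 and 4.71 in PtC- cells). The fitted difference of 2.19 ± 0.21 (adjusted p = 0.000851) rests on values at the detection limit on that side. With those arrays set at their lowest detected signal, or at the probe's own signal where higher, Tnfaip3 was at least 2.48-fold higher in the spleen.

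Nfkbia encodes IkB-alpha, the classical inhibitor that NF-kB induces against itself. It had 9.66 and 9.80 in PtC+ and 9.47 and 9.78 in PtC- spleen cells, against 9.50 and 9.46 in PtC+ and 9.86 and 10.09 in PtC- peritoneal cells. These ranges overlapped, and the difference of -0.051 ± 0.14 was not called (adjusted p = 0.814), with a 95% interval of -0.38 to 0.27. Its dimmer probe differed by 0.12 ± 0.29 (adjusted p = 0.785), and with median centring in place of quantile scaling the brighter one turned to 0.42, also not called. Nfkbie, which encodes IkB-epsilon, had 8.92 to 9.48 in the spleen and 8.72 to 8.96 in the peritoneum (0.34 ± 0.17, adjusted p = 0.178). Bcl3, a nuclear IkB relative that works with p50 and p52 dimers, had 6.91 to 7.42 in the spleen and 5.34 to 7.75 in the peritoneum (0.33 ± 0.49, adjusted p = 0.662). Its lowest value came from the array that stood apart, and without it the sign turned to -0.29 (adjusted p = 0.367).

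**Figure D3:**
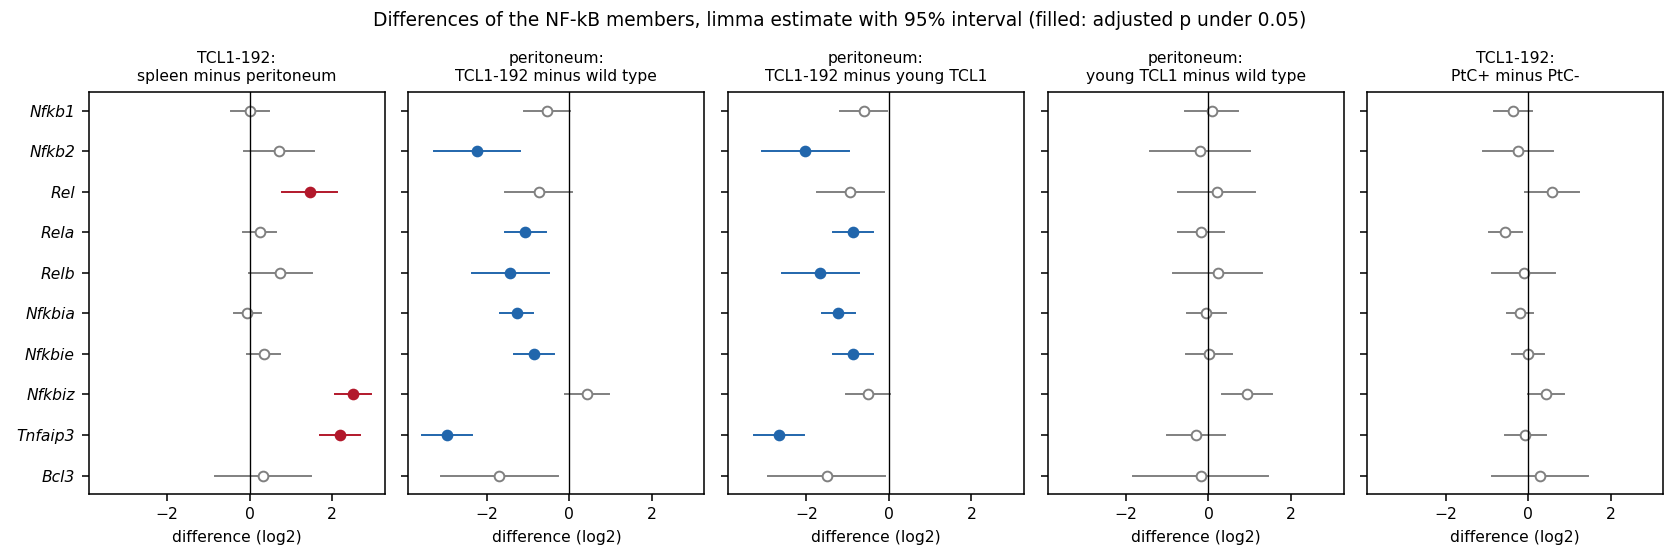
Difference of each gene (log2, horizontal axis) in 5 comparisons (panels), as limma's estimate with its 95% interval; filled points had an adjusted p under 0.05. Nfkbiz, Tnfaip3 and Rel lie right of 0 in the spleen panel, 6 filled points lie left of 0 in each panel of TCL1-192 against wild type or young TCL1, and no point is filled in the last 2 panels.

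The other genes of the pathway were read from 5 lists, and their counts are set beside the same all-gene shares. Of 21 tested receptors and adaptors 5 were higher and 4 lower in the spleen. Higher were Traf1 (1.47), Traf3 (1.17), the TNF receptor Tnfrsf1b (1.36) and the BAFF receptor Tnfrsf13c (0.95), and lower were Tlr4 (-0.99), the kinase Irak4 (-0.95), Cd40 (-0.94) and the adaptor Tradd (-0.65). Of 16 kinases and their partners between the receptors and NF-kB, 5 were higher and 0 lower, among them Prkcb (1.09), Map3k14 (0.72) and Bcl10 (0.60). Of 16 other inhibitors and regulators, of which not all hold NF-kB back, 7 were higher and 2 were lower (Nfkbil1 at -0.53 and Rnf11 at -0.55). Among the higher were Nfkbid (2.07), another nuclear IkB, Btrc (1.53), which marks IkB proteins for destruction, and the RNase Zc3h12a (0.73). The highest of this list with Nfkbid was Nfkbil2 (2.07), now named Tonsl, which is known for DNA repair rather than for NF-kB.

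Of 24 known NF-kB targets 8 were higher and 0 lower, led by Egr2 (undetected in the peritoneum, at least 16.4-fold higher), Junb (3.14), Il10 (2.92) and Nfkbid. The median of this list was 0.25. Egr2 and Junb are also immediate-early genes, which many signals induce, and 18 of 20 tested immediate-early and stress genes were higher in the spleen, with a median of 3.35 and with Egr1 at 6.27, Atf3 at 5.33 and Fos at 4.85. Nfkbiz and Tnfaip3 are induced early too, and this list moved in the direction they did. Macrophage markers moved the other way: 13 of 17 were lower in the spleen, with summed signals of 1461 to 1628 on spleen arrays and 13720 to 23570 on TCL1-192 peritoneal arrays, and 3 of them detected against 13 to 16. Summed erythroid markers were 1040 to 1734 in the spleen and 19470 to 33370 in the peritoneum, while neutrophil markers were 76.6 to 365 and 50.1 to 58.4. The part of immediate-early genes or of other cells in the values of the 10 genes was not tested, and in such bulk samples fewer cells of a type and less RNA per cell cannot be told apart.

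**Figure D4:**
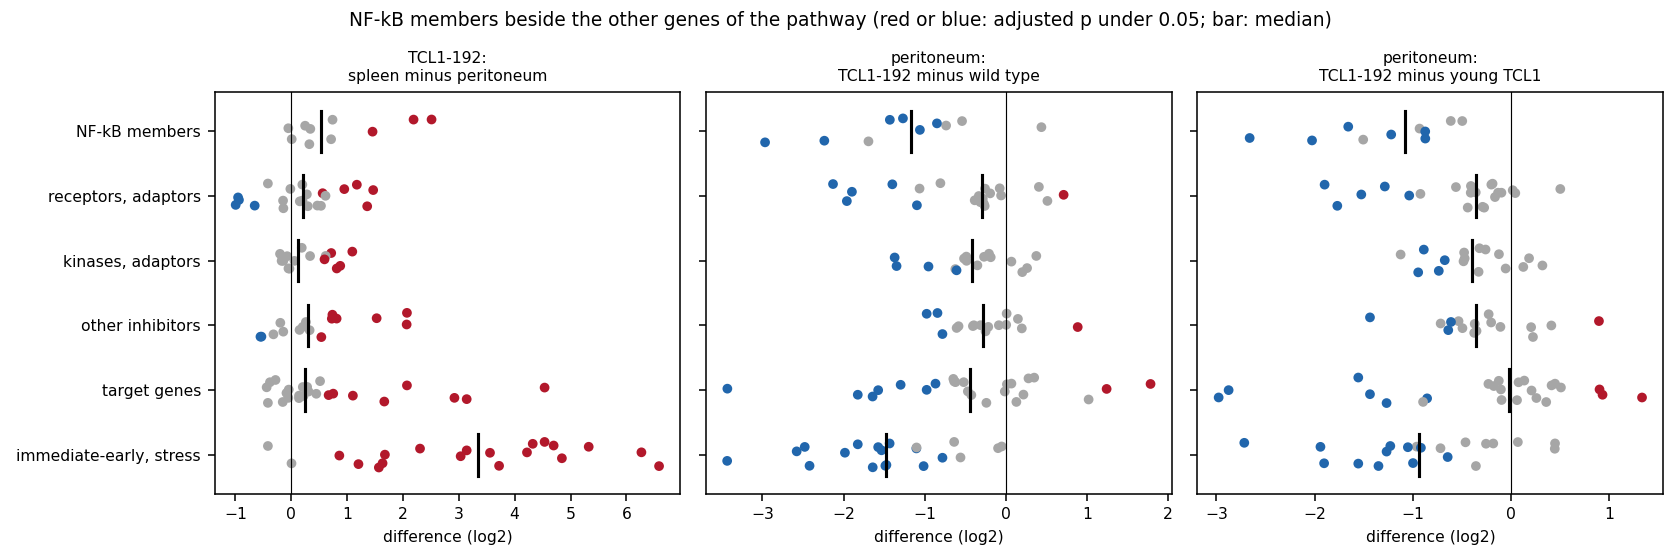
Difference of every tested gene (log2, horizontal axis) of the 10 NF-kB genes and of 5 lists of pathway genes (rows) in 3 comparisons (panels); red or blue points had an adjusted p under 0.05 and the bar is the median of a row. In the spleen panel the immediate-early row stands far right with a median of 3.35, and the NF-kB row has a median of 0.53.

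Peritoneal TCL1-192 cells against wild type peritoneal cells (4 arrays against 2) showed 6 of the 10 genes called, all lower in TCL1-192 cells: the subunits Nfkb2, Relb and Rela and the inhibitors Tnfaip3, Nfkbia and Nfkbie. Over all genes 27.4% were called, and 15.6% were called lower. The median of the 10 was -1.16, against 0.033 over all genes, and 7 of the 10 had groups that did not overlap, against 43.2% of all genes. Within PtC+ cells 4 were called (16.8% of all genes) and within PtC- cells 3 (9.39%), with Tnfaip3 and Nfkbia in both. Without the array that stood apart 8 of the 10 were called (31.9% of all genes), 7 lower and 1, Nfkbiz, higher.

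The same peritoneal TCL1-192 arrays against young TCL1 cells (4 arrays against 2) also gave 6 genes, all lower, against 19.7% of all genes called and 11.7% called lower. The 6 were Tnfaip3, Nfkb2, Relb, Nfkbia, Rela and Nfkbie. Both comparisons share the 4 TCL1-192 arrays, so the second is no independent repeat of the first. The median of the 10 was -1.08, against 0.0052 over all genes. Within PtC+ cells 5 of the 10 were called (16.1% of all genes) and within PtC- cells 3 (11.2%). Without the array that stood apart 7 of the 10 were called (23.8% of all genes), without the PtC- array of replicate 1 all 10 (40.4%), and without the PtC+ array of replicate 2 only 2, Tnfaip3 and Nfkbia (12.4%). The count over all genes thus moved in the same direction as that of the 10. The fit without the PtC- array of replicate 1 had as its only PtC- TCL1-192 peritoneal array the one that stood apart, which detected 4 of the 10.

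Of the subunits, Nfkb2 had 5.53 and 5.04 in PtC+ and 6.40 and 4.91 in PtC- TCL1-192 peritoneal cells, against 7.96 in PtC+ and 7.04 in PtC- young TCL1 cells and 7.20 in PtC+ and 8.21 in PtC- wild type cells. Only 1 of the 4 TCL1-192 arrays detected it, and all 4 lay below every young TCL1 and wild type array. The fitted difference was -2.24 ± 0.45 from wild type (adjusted p = 0.0107) and -2.03 ± 0.45 from young TCL1 (adjusted p = 0.021). With the 3 undetected arrays at their lowest detected signal it was -1.65 from wild type and -1.44 from young TCL1. The difference from young TCL1 missed the threshold without the PtC+ array of replicate 2 (-1.91, adjusted p = 0.0738).

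Relb, its partner, had 7.09 and 6.16 in PtC+ and 7.49 and 6.29 in PtC- TCL1-192 cells, against 8.51 and 8.32 in young TCL1 cells and 8.10 and 8.27 in wild type cells. Again the groups did not overlap, at -1.43 ± 0.40 from wild type (adjusted p = 0.0354) and -1.66 ± 0.40 from young TCL1 (adjusted p = 0.028). These calls were close to the threshold: leaving out any single TCL1-192 spleen array, or the PtC+ peritoneal array of replicate 2, ended both, with adjusted p of 0.0607 to 0.096 against wild type and 0.0528 to 0.0776 against young TCL1, as did fitting with no filter on dim probes (0.0802 and 0.0616).

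Rela had 10.83 and 10.28 in PtC+ and 11.66 and 11.31 in PtC- TCL1-192 cells, against 12.26 in PtC+ and 11.53 in PtC- young TCL1 cells and 11.97 in PtC+ and 12.20 in PtC- wild type cells. All TCL1-192 values were below the wild type ones (-1.06 ± 0.21, adjusted p = 0.00989). Against young TCL1 cells the difference was -0.87 ± 0.21 (adjusted p = 0.0274) and the PtC- arrays overlapped, with -1.71 ± 0.29 (adjusted p = 0.013) in PtC+ cells and -0.040 ± 0.29 (adjusted p = 0.948) in PtC- cells. The call against young TCL1 was lost without any single spleen array or without the PtC+ peritoneal array of replicate 2 (adjusted p = 0.0561 to 0.0617).

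Rel was not called, at -0.74 ± 0.35 from wild type (adjusted p = 0.162) and -0.93 ± 0.35 from young TCL1 (adjusted p = 0.106), with 4.93 to 6.35 in TCL1-192 peritoneal cells, 6.61 and 6.68 in young TCL1 cells and 6.76 and 6.14 in wild type cells. Without the PtC- array of replicate 1 Rel was at -0.97 and -1.17, and the only PtC- TCL1-192 peritoneal array left had not detected it. Without that undetected array instead Rel was at -0.54 and -0.75. The brighter Nfkb1 probe gave -0.54 ± 0.24 (adjusted p = 0.139) and -0.61 ± 0.24 (adjusted p = 0.118), while the dimmer probe was called against both, at -1.87 ± 0.27 (adjusted p = 0.00284) and -2.16 ± 0.27 (adjusted p = 0.00208). On the dimmer probe TCL1-192 peritoneal cells had 5.31 to 7.08, young TCL1 cells 8.05 and 8.92, and wild type cells 8.10 and 8.29. The brighter probe had 10.55 to 11.71 in TCL1-192 peritoneal cells, 11.99 and 11.72 in young TCL1 and 11.46 and 12.11 in wild type cells, and without the PtC+ array of replicate 1 it was called against both (-0.72, adjusted p = 0.0423, and -0.80, adjusted p = 0.0439), as it was against young TCL1 without the PtC- array of replicate 1 (-0.68, adjusted p = 0.0461).

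Of the inhibitors, Tnfaip3 was undetected on all 4 TCL1-192 peritoneal arrays, against 7.55 and 7.73 in young TCL1 cells and 8.23 and 7.67 in wild type cells. It was at least 4.24-fold lower than in wild type cells (fitted -2.97 ± 0.26, adjusted p = 0.000279) and at least 3.43-fold lower than in young TCL1 cells (fitted -2.66 ± 0.26, adjusted p = 0.000657). It was called in both PtC classes against either control, with fitted differences of -3.37 to -2.56. TCL1-192 spleen arrays, at 6.89 to 7.35, lay between the undetected peritoneal arrays and the young TCL1 and wild type arrays; spleen cells of those genotypes are not among the 12 arrays, and this order was not tested.

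Nfkbia had 9.50 and 9.46 in PtC+ and 9.86 and 10.09 in PtC- TCL1-192 peritoneal cells, against 10.77 and 11.14 in young TCL1 cells and 10.79 and 11.21 in wild type cells. Every TCL1-192 array lay below every young TCL1 and wild type array, at -1.27 ± 0.17 from wild type (adjusted p = 0.00207) and -1.22 ± 0.17 from young TCL1 (adjusted p = 0.00343). The 4 TCL1-192 spleen arrays (9.47 to 9.80) lay in the peritoneal range, so that the 8 TCL1-192 arrays together stood below the other 4. Its dimmer probe had like differences that missed the threshold, -1.14 ± 0.35 (adjusted p = 0.052) and -1.18 ± 0.35 (adjusted p = 0.0586).

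Nfkbie had 8.91 and 8.72 in PtC+ and 8.96 and 8.95 in PtC- TCL1-192 peritoneal cells, against 9.97 in PtC+ and 9.54 in PtC- young TCL1 cells and 10.20 in PtC+ and 9.26 in PtC- wild type cells. The groups did not overlap, at -0.85 ± 0.21 from wild type (adjusted p = 0.0218) and -0.87 ± 0.21 from young TCL1 (adjusted p = 0.0263). Its dimmer probe did not pass (-0.71 ± 0.53, adjusted p = 0.37, and -0.61 ± 0.53, adjusted p = 0.472), and without the PtC+ peritoneal array of replicate 2 neither call held (adjusted p = 0.0659 and 0.0768), nor did that against young TCL1 without the PtC+ array of replicate 1 (adjusted p = 0.0527). With the mean of both probes neither was called (adjusted p = 0.121 and 0.159).

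Bcl3 had 7.46 and 6.78 in PtC+ and 7.75 and 5.34 in PtC- TCL1-192 cells, the last undetected, against 8.59 and 8.09 in young TCL1 cells and 8.39 and 8.66 in wild type cells. All 4 TCL1-192 values were below the others, yet the spread left -1.69 ± 0.60 (adjusted p = 0.0782) and -1.51 ± 0.60 (adjusted p = 0.128). The value of 5.34 came from the array that stood apart, and without that array Bcl3 was called at -1.11 (adjusted p = 0.0118) and -0.92 (adjusted p = 0.0331), as it was without replicate 1 of that group (-2.29 and -2.10). Nfkbiz was the 1 gene above 0 against wild type, with 7.29 and 7.65 in PtC+ and 7.03 and 6.42 in PtC- TCL1-192 cells, against 6.49 and 6.84 in wild type cells (0.44 ± 0.23, adjusted p = 0.201). Without the array that stood apart it was called, at 0.62 (adjusted p = 0.0457). Against young TCL1 cells it was -0.50 ± 0.23 (adjusted p = 0.174), with 6.66 in PtC+ and 8.53 in PtC- young TCL1 cells. Without the PtC- array of replicate 1 Nfkbiz was at -0.65, and the only PtC- TCL1-192 peritoneal array left had not detected it. By class it was lower than in young TCL1 in PtC- cells (-1.81 ± 0.32, adjusted p = 0.0145) and not called in PtC+ cells (0.81 ± 0.32, adjusted p = 0.134). The test of the difference between the classes missed the threshold (2.62 ± 0.45, PtC+ minus PtC-, adjusted p = 0.0509). The PtC- value rests on 1 young TCL1 array, on which markers of T cells and of NK cells were high: the summed T cell markers were 1075 and 858.3 on PtC- TCL1-192 peritoneal arrays against 2219 there, and the NK cell markers 176.2 and 145.2 against 746.2. In that comparison 4 of 6 T cell and 2 of 3 NK cell markers were called lower (medians -2.31 and -2.69), and their part in the Nfkbiz value was not tested.

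The pathway lists against wild type are set beside 27.4% of all genes called and 15.6% called lower. Of 21 receptors and adaptors 1 was higher (Tnfrsf13c at 0.71) and 5 were lower, with Traf3 at -2.13 and Traf1 at -1.96. Birc3 and Tnfrsf1a were undetected in TCL1-192 cells and at least 1.29-fold and 1.16-fold lower. Of 16 kinases and their partners 0 were higher and 4 lower, namely Prkcb (-1.35), Map3k7ip3 (now Tab3, -1.37), Rnf31 (-0.95) and Tbk1 (-0.61). Of 16 other inhibitors and regulators 1 was higher (Commd1 at 0.88) and 3 were lower. These were Nfkbid (-0.98), Otud7b (-0.84) and Cyld (-0.78), the last 2 being deubiquitinases as A20 is. The called shares of receptors, kinases and other inhibitors, in either direction, were close to that of all genes. Of 24 targets 2 were higher, the cytokine Il10 (1.78) and the costimulator Cd86 (1.24), and 7 were lower. Among the lower were lymphotoxin beta (Ltb) at -3.43 and Junb at -1.83. Ccl5 and Egr2 were undetected in TCL1-192 peritoneal cells (at least 1.79-fold and 2.10-fold lower). Immediate-early and stress genes had 0 higher and 15 of 20 lower, with a median of -1.48.

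Against young TCL1 cells the same lists are set beside 19.7% of all genes called and 11.7% called lower. Of 21 receptors and adaptors 0 were higher and 5 lower (Traf1 at -1.90, Traf3 at -1.53, Tnfrsf1b at -1.77). Of 16 kinases and their partners 0 were higher and 4 lower (Malt1 at -0.95, Tbk1 at -0.89, Bcl10 at -0.74, Prkcb at -0.68). Of 16 other inhibitors and regulators 1 was higher and 3 were lower (Nfkbil1 at 0.89, Nfkbid at -1.44, Cyld at -0.64, Zc3h12a at -0.61). Of 24 targets 3 were higher and 6 lower (Ccnd2 at 1.33, Cd86 at 0.93, Il10 at 0.90, Ltb at -2.98). Of 20 immediate-early and stress genes 0 were higher and 11 lower. Mast cell markers were also lower: their summed signals were 67.8 to 118 on TCL1-192 peritoneal arrays, 1488 to 1706 on young TCL1 arrays and 1828 to 2767 on wild type arrays, with Cpa3, Mcpt4, Cma1, Kit and Mcpt6 undetected on every TCL1-192 array. Macrophage sums were 13720 to 23570 on TCL1-192 peritoneal arrays, 21120 to 21380 on young TCL1 and 21410 to 28340 on wild type arrays, and erythroid sums 19470 to 33370, 400 to 2493 and 86.1 to 207. The part of these cells in the lower signals of the 6 genes was not tested.

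Young TCL1 against wild type peritoneal cells (2 arrays against 2, 1 in each PtC class) had 0 of the 10 genes called in limma, against 1.52% of all genes, and 1 at an unadjusted p under 0.05. That gene was Nfkbiz, at 0.93 ± 0.26 (adjusted p = 0.187), and its young TCL1 values of 6.66 and 8.53 overlapped the wild type ones of 6.49 and 6.84. The 9 other differences ran from -0.31 (Tnfaip3) to 0.23 (Relb), with SEs of 0.20 to 0.70. The 95% interval was narrowest for Nfkbia (-0.51 to 0.41) and widest for Bcl3 (-1.83 to 1.45). Of the lists, the target Ccnd2 (-1.85) and the immediate-early gene Fosb (-1.25) were the only 2 genes called. The Nfkbiz difference was 0.93 without the PtC- peritoneal TCL1-192 array of replicate 1 and 0.96 without that of replicate 2. These arrays lend only their spread to this comparison.

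PtC+ against PtC- TCL1-192 cells (4 arrays against 4 over both tissues) asks whether binding of the self antigen goes with NF-kB gene expression. In limma 0 of the 10 genes were called, as were 0% of all genes, and 2 had an unadjusted p under 0.05. Rela had 11.14 and 11.23 in the spleen and 10.83 and 10.28 in the peritoneum in PtC+ cells, against 11.40 and 11.31 in the spleen and 11.66 and 11.31 in the peritoneum in PtC- cells. All 4 PtC+ values were below all 4 PtC- values, and the difference was -0.55 ± 0.17 (adjusted p = 0.58). Groups that did not overlap, in either direction, were found for 1 of the 10 genes and for 2.05% of all genes. Of all 13190 genes 140 had every PtC+ value below every PtC- value. Nfkbiz was at 0.44 ± 0.19 (adjusted p = 0.58), with the groups overlapping. The widest 95% interval, that of Bcl3, ran from -0.86 to 1.45 and the narrowest, that of Nfkbia, from -0.52 to 0.13. None of the PtC differences was shown to differ between spleen and peritoneum: the interaction called 0 genes, 0 of the 10 passed unadjusted, and the largest value on the probes used was 0.76 ± 0.34 for Rela (adjusted p = 0.443). The dimmer Nfkb1 probe was at 1.69 ± 0.43 (limma's unadjusted p = 0.00563, adjusted p = 0.431 over 18100 probes). Each of the 5 lists had 0 genes called. Without the PtC- peritoneal array of replicate 1 Bcl3 was at 0.89 for PtC and -1.76 for its difference between tissues. The PtC- peritoneal group was then the array that stood apart alone. Without the array that stood apart, both values of Bcl3 changed sign, to -0.32 and 0.68.

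Young TCL1 and wild type cells have 1 array in each PtC class, so their PtC differences are given as values, not tested within a pair, and they varied in sign. Nfkbiz was at 0.13 in TCL1-192 spleen and 0.75 in TCL1-192 peritoneal cells, against -1.87 in young TCL1 and -0.35 in wild type cells. The TCL1-192 peritoneal difference exceeded the young TCL1 one by 2.62 ± 0.45 (adjusted p = 0.0509), which missed the threshold, in a contrast that called 1.19% of all genes. Rela was at -0.93 in TCL1-192 peritoneal cells, against 0.73 in young TCL1 and -0.23 in wild type cells (difference from young TCL1 -1.67 ± 0.41, adjusted p = 0.085). Nfkb2 was at 0.92 in young TCL1 and -1.01 in wild type cells, which differed by 1.92 ± 1.03 (adjusted p = 0.619). The same difference from wild type was 1.10 ± 0.45 for Nfkbiz (adjusted p = 0.888), in a contrast that called 0.311% of all genes. Nfkbie was at -0.14 in TCL1-192 peritoneal, 0.43 in young TCL1 and 0.94 in wild type cells.

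**Figure D5:**
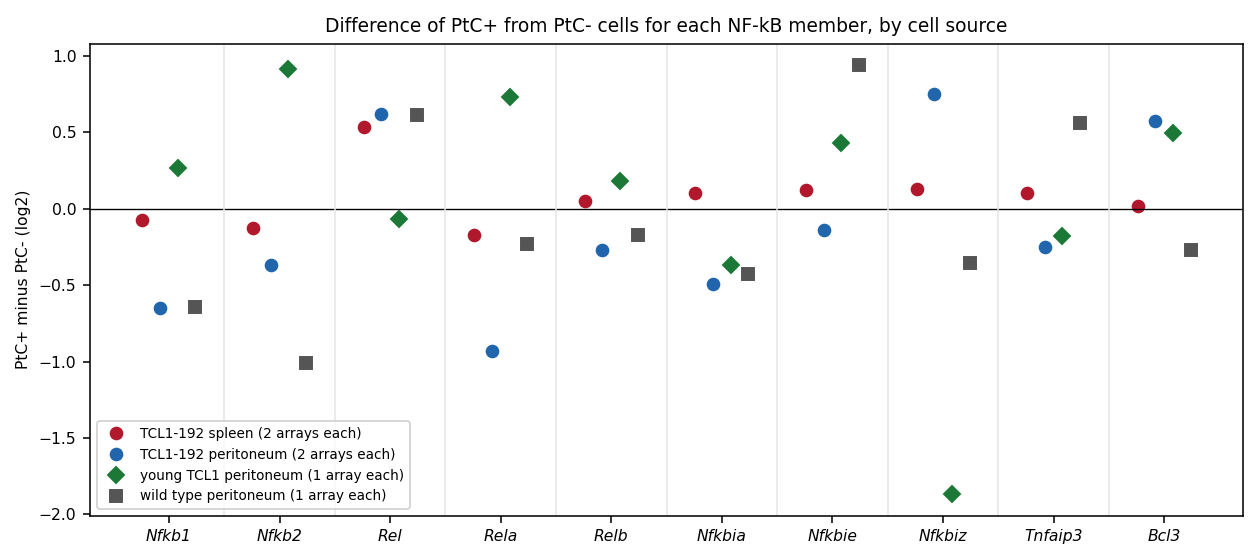
PtC+ minus PtC- difference (log2, vertical axis) of each gene (horizontal axis) in 4 cell sources, as the difference of means of 2 arrays each for TCL1-192 cells or of single arrays for young TCL1 and wild type cells. Nfkbiz in young TCL1 cells, at -1.87, is the point farthest from 0, and the TCL1-192 spleen points lie between -0.17 and 0.54.

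Across the 12 arrays the 10 genes fell into patterns, given here as descriptions, since the arrays of a group share tissue and genotype. The alternative pair Nfkb2 and Relb had a Pearson correlation of 0.94 and the canonical pair Nfkb1 (brighter probe) and Rela one of 0.90. Nfkb2 and Bcl3 had 0.88, Rel and Nfkbiz 0.73, and Rel and Tnfaip3 0.71. Tnfaip3 and Nfkbiz, both higher in the spleen, had 0.28. Tnfaip3 was also high on all 4 young TCL1 and wild type arrays, and Nfkbiz on 1 of them, the PtC- young TCL1 array. The lowest was -0.45, between Nfkbiz and Nfkbia. Of all 13190 genes, the closest in pattern to Nfkbia was Ltb (0.983), a lymphotoxin gene and known NF-kB target, and the closest to Tnfaip3 were Nod1 (0.981) and Traf1 (0.977). Rela was closest to Rnpepl1 (0.979) and Selplg (0.978), Nfkb2 to Ell (0.968) and Cdk5rap2 (0.963), Relb to Plcb3 and Scmh1 (0.954 each) and Nfkbiz to the histone genes Hist1h2bg (0.957) and Hist2h3b (0.953). Rel had Rsbn1l at 0.933 and Nfkb1 had Il2rg at 0.953, each second to an unnamed gene model, and the 2 closest to Bcl3 and Nfkbie were such models (0.974 for Bcl3, 0.912 and 0.913 for Nfkbie).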

How the data were processed

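Average bead intensity per probe and a detection p-value per probe were deposited by the authors, not normalized between arrays, per the file headers; a second deposited table holds intensity that, by its values, was quantile normalized on a linear scale. RNA was extracted with Trizol, cleaned and labelled as biotinylated cRNA, per the labels' protocols; scanner and software settings were not stated there. Signals were background corrected, quantile normalized and put on a log2 scale with neqc (limma 3.58.1, R 4.3.3; offset 16, controls inferred from detection p-values). Probes detected (p under 0.05) on at least 2 arrays were kept (18100), with the brightest probe per symbol (13190 genes; 3479 symbols had several). One limma fit had 8 group means over 12 arrays (4 residual degrees of freedom); p-values were two-sided and adjusted by Benjamini-Hochberg. The number of arrays limits the precision. Code was tested on simulated data. The 10 genes, the lists and the tests were chosen with earlier results of these data known. Named were the 10 genes, per list up to 4 called genes a direction with the smallest adjusted p, and per gene the 2 closest in pattern. A list gene and a marker gene that these rules cover are not reported here. Other normalizations, filters, probe rules, weights, a block on replicate number and leaving out each TCL1-192 array were tried.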

Additional observations from a re-analysis of the deposited data

How the results depend on the processing

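Tnfaip3, Nfkbiz and Rel were called higher in the spleen under all 18 settings tried for that comparison, and Tnfaip3, Nfkbia, Nfkb2 and Rela lower than in wild type under all 17 settings tried on genes. The number of the 10 genes called in the spleen comparison was 5 with normexp and median centring and 5 with the replicate block, against 3 as reported. Median centring added Relb (1.07, adjusted p = 0.0165) and Nfkbie (0.84, adjusted p = 0.0432). The block added Relb (0.74, adjusted p = 0.0288) and Nfkb2 (0.71, adjusted p = 0.04996). PtC- arrays alone called 3 genes against wild type and 3 against young TCL1, against 6 as reported. Leaving out each TCL1-192 array in turn gave 3 to 6 called genes for spleen against peritoneum, 4 to 8 against wild type, 2 to 10 against young TCL1, 0 to 1 for young TCL1 against wild type, 0 to 1 for PtC and 0 to 1 for the PtC difference between tissues. The labels' replicate numbers share no stated animal or batch, and the numbers were not taken as pairs. The 6 correlations of same-numbered deviations were all positive, from 0.054 to 0.26. Whether a number marks a shared animal or batch was not tested. The block also called Bcl3 lower than in wild type (-1.69, adjusted p = 0.0441) and changed no call against young TCL1. Over all genes the same omissions gave 1812 to 5961 called genes for spleen against peritoneum (3516 as reported), 2515 to 6053 against wild type (3613), 1629 to 5335 against young TCL1 (2594) and 59 to 502 for young TCL1 against wild type (201). The highest of each came without the PtC- peritoneal TCL1-192 array of replicate 1, which also gave 1533 for PtC and 1649 for its difference between tissues, against 0 and 0. For young TCL1 against wild type other settings gave 83 (detected on at least 6 arrays), 125 (median centring), 355 (intensity trend), 368 (array weights) and 411 (the authors' normalized table).

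Some uncalled values changed sign. With median centring the all-gene median shifted by 0.26 for spleen against peritoneum and by -0.26 against wild type and young TCL1. It turned spleen Nfkbia to 0.42 (0.18 above that median), PtC Nfkbia to 0.022 and Nfkbie to 0.19, and the PtC difference between tissues of Nfkb1 to -0.068, Rel to 0.034 and Nfkbie to -0.16. That last Rel value was 0.070 with an offset of 50 and 0.058 in the authors' normalized table. Averaging probes turned spleen Nfkbia to 0.037, PtC Nfkbie to 0.017, its difference between tissues to -0.20 and its young TCL1 value to -0.039. The dimmer Nfkbia probe gave 0.12 in the spleen, 0.041 in young TCL1, 0.013 for PtC and -0.57 between tissues, and the dimmer Nfkbie probe -0.10, 0.041 and -0.67 in the last 3. Leaving out 1 array at a time, the spleen difference ran from -0.17 to 0.19 for Nfkb1, from -0.13 to 0.028 for Nfkbia and from -0.29 to 0.92 for Bcl3. The PtC difference ran from -0.66 to 0.13 for Nfkb2, from -0.43 to 0.19 for Relb, from -0.26 to 0.12 for Tnfaip3, from -0.13 to 0.11 for Nfkbie and from -0.32 to 0.89 for Bcl3. Between tissues it ran from -0.50 to 1.05 for Nfkb2, from -0.28 to 0.96 for Relb, from -0.041 to 0.75 for Tnfaip3, from -0.56 to 0.41 for Rel and from -1.76 to 0.68 for Bcl3. The cause was not tested. Signal over background limits Nfkb2, Relb, Rel, Nfkbiz, Bcl3 and Tnfaip3 in TCL1-192 peritoneal cells, where at most 3 of 4 arrays detected each.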
